A study of Mus musculus with 26 samples.

Results

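The outermost 5 Mb of mouse chromosomes were compared with the chromosome interior in scRR-seq-DNA profiles of single blastomeres from 8-cell embryos. On each of the 17 chromosomes in the table of replication states, the first 5 Mb of 40-kb bins in coordinate order were taken as the centromere-proximal end and the last 5 Mb of bins as the telomere-proximal end. This gave 34 ends with 4250 of the 51976 bins, 2125 on each side, and left 47726 interior bins. Bins of chromosomes 6, 10, X and Y were absent from that table, and these chromosomes were not analysed here.

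In scRR-seq, the chromatin of a lysed cell is held on magnetic beads and its RNA stays in solution, so that the DNA (scRR-seq-DNA) and the RNA (scRR-seq-RNA) of 1 cell are sequenced separately. The blastomeres came from 2 embryos made by in vitro fertilization of C57BL/6 oocytes with C57BL/6 sperm, separated by hand at the 8-cell stage and given no treatment. The 6 cells of embryo 2 were in S-phase and carry the results. The 3 cells of embryo 1, which were G1-like or G2/M-like, served as a background. In the paper, mappability in S-phase cells was corrected with the G1-like and G2/M-like blastomeres. Calls in these 3 cells are therefore not an independent rate of false calls, and a low score does not tell G1 from G2/M. Since all 6 S-phase cells came from 1 embryo, the cells were not biological replicates, no p-value was computed, and differences were taken within each cell and are given as mean ± SD over cells.

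A bin was called replicated, unreplicated or without data in each cell, and the percentage of replicated bins among those with a state is the percentage replication score. As S-phase proceeds, early-replicating regions pass to the replicated state first. In mammals these are usually rich in genes and GC, whereas AT-rich, gene-poor chromatin at the nuclear lamina usually replicates late. Mouse chromosomes are telocentric, with the centromere and its satellite DNA at the very tip, and both tips are capped by telomeric TTAGGG repeats. The satellite arrays and most of the telomeric repeat are missing from the genome assembly, so the bins describe the unique sequence next to them.

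On the GRCm38 (mm10) assembly, the first known base of the 17 chromosomes lay between positions 3000001 and 3100001, and the first bin of an end began between positions 3000001 and 6760001. The 5 Mb of bins of an end spanned 5 to 7.92 Mb, because filtered bins left gaps. The following stretches of RefSeq sequence from GRCm38 are the first known bases of chromosomes 1 and 5. Each lies within the outermost centromere-proximal bin, and they are shown because the assembly begins there with sequence that holds little of the telomeric motif. Capitals mark each TTAGGG.
chromosome 1 centromere-proximal, chr1:3000001-3000180, plus strand: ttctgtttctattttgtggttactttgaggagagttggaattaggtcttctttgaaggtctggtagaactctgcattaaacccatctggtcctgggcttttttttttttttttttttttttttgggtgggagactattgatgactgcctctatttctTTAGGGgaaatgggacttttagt
chromosome 5 centromere-proximal, chr5:3000001-3000180, plus strand: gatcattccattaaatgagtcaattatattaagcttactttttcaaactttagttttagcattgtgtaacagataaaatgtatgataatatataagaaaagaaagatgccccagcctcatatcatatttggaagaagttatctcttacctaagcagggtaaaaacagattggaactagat

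TTAGGG occurred 1 time in the stretch from chromosome 1 and 0 times in that from chromosome 5. Over the last 2000 known bases of each chromosome, TTAGGG occurred 0 to 114 times with a median of 42, and 16 of 17 chromosomes had 5 or more copies. Chromosome 4 was the exception with 0. In the first 2000 known bases, TTAGGG occurred 0 to 2 times with a median of 0. On the plus strand, a telomeric repeat at that tip would read CCCTAA, so the TTAGGG count alone would miss it. CCCTAA occurred 0 to 2 times in these first bases, and 0 times on chromosomes 1 and 5. A tandem pair of TTAGGG, searched on both strands (as CCCTAA on the other), was present in 5.51% of telomere-proximal bins, 1.74% of centromere-proximal bins and 1.84% of all bins.

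Centromere-proximal ends were more replicated than the interior in 5 of 6 cells, and telomere-proximal ends were also higher in 5 of 6 cells but by a smaller margin. In cell 6, which had the lowest score, both ends were at or slightly below the interior. The percentage of centromere-proximal bins replicated was 93.0 in cell 2, 81.3 in cell 3, 90.02 in cell 5, 61.0 in cell 6, 92.8 in cell 7 and 93.3 in cell 8. For telomere-proximal bins it was 83.2, 83.5, 82.8, 60.6, 84.0 and 79.5 in the same order. Interior bins stood at 76.9, 73.5, 76.1, 62.5, 79.8 and 78.0. Thus 4 cells were at or above 90% next to the centromere, where no cell reached 85% next to the telomere.

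The mean was 85.2% ± 12.7 (SD, n = 6 cells) for centromere-proximal, 78.9% ± 9.15 for telomere-proximal and 74.5% ± 6.21 for interior bins. Within cells, the centromere-proximal score exceeded the interior by 10.8 ± 6.69 percentage points (range −1.51 to 16.1), and by 13.2 without cell 6. The telomere-proximal score exceeded it by 4.46 ± 4.24 points (range −1.97 to 10.0), about the size of its spread. Telomere-proximal bins were below centromere-proximal bins by 6.30 points on average (SD 6.05), in every cell but cell 3. The cells fell into closing title numbers 16 to 17 (cells 2 and 3) and 22 to 25 (the other 4 cells). Within these ranges the centromere-proximal excess was 11.9 and 10.2 points and the telomere-proximal excess 8.17 and 2.60 points.

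In the embryo 1 cells, replicated calls covered at most 0.847% of centromere-proximal, 2.96% of telomere-proximal and 3.69% of interior bins. These calls were unevenly placed. In cell 1, 37 of the 63 replicated telomere-proximal bins lay on chromosome 7, between positions 140560001 and 142920000, where they made up 29.6% of that end. In embryo 2, 0 to 21 bins on each side had no data in a cell. Cell 6 had no data in 2.59% of interior bins, against 0.214% to 0.316% in the others. Whether its data quality had a part in its low values was not tested.

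**Figure D1:**
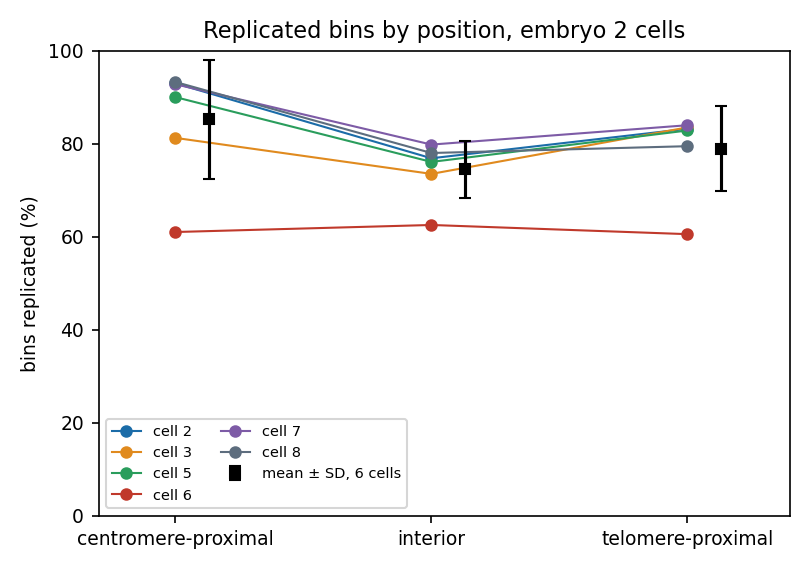
Percentage of bins replicated (vertical axis) in centromere-proximal, interior and telomere-proximal bins for each of the 6 cells of embryo 2 (coloured lines), with the mean ± SD over cells as black squares. In 5 cells the centromere-proximal point lies above the interior point, and cell 6 lies near 61% in all 3 positions.

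Chromosome by chromosome, most ends on both sides exceeded their interior, and the telomere-proximal side held both the most and the least replicated ends by mean over cells. Averaged over cells, 15 of 17 centromere-proximal ends exceeded the interior of their own chromosome, with a median difference of 10.6 points. The exceptions were chromosome 3 (−1.37) and chromosome 13 (−0.527), and the highest excess was 27.0 points on chromosome 16. On the telomere-proximal side 13 of 17 ends exceeded their interior, with a median of 13.1 points and up to 28.1 on chromosome 16. The 4 below it were chromosomes 3, 13, 17 and 18, at −25.5, −20.1, −46.6 and −45.9 points.

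Those 4 ends were below their interior in 6 of 6 cells, cell 6 and all others alike. In the opposite direction, telomere-proximal ends were higher than centromere-proximal ends on 10 of 17 chromosomes although their pooled score was lower. Without chromosome 18, the pooled telomere-proximal excess over the interior was 7.62 instead of 4.46 points, and the difference from the centromere-proximal side was −2.75 instead of −6.30.

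**Figure D2:**
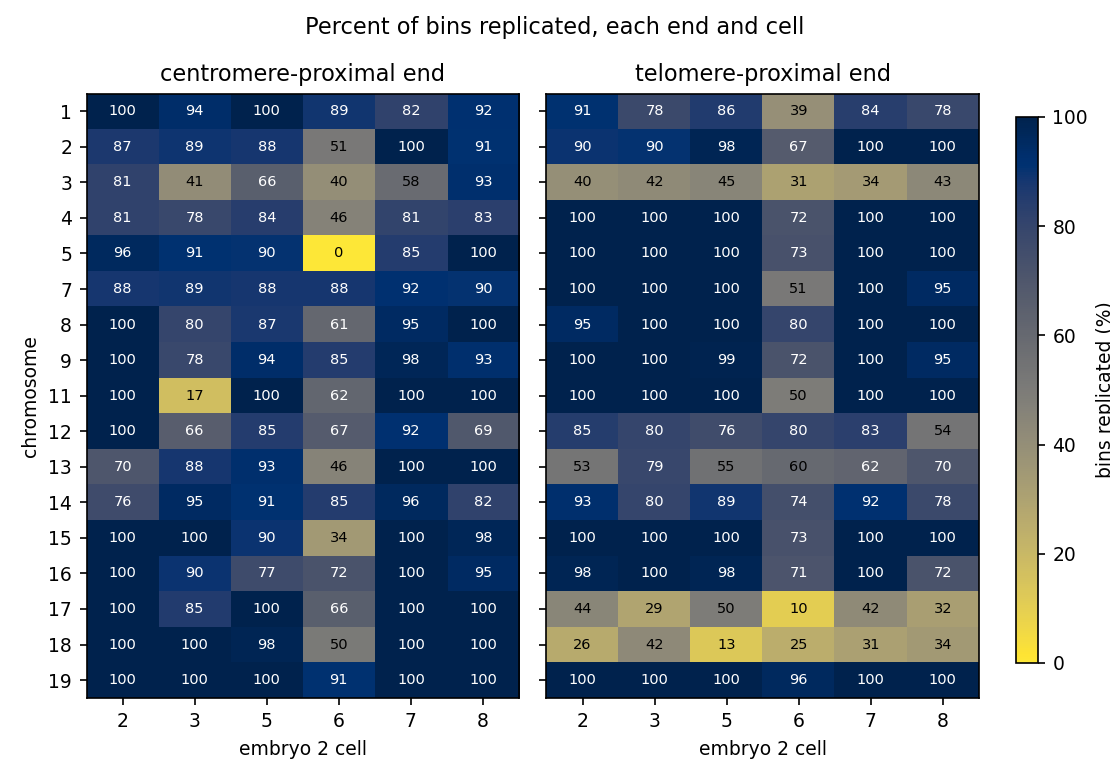
Percentage of bins replicated at each of the 34 ends (rows, chromosomes; left panel centromere-proximal, right panel telomere-proximal) in each cell of embryo 2 (columns), with rounded values printed in the squares. Telomere-proximal ends of chromosomes 3, 17 and 18 are low in all 6 cells, and the column of cell 6 is the lowest at many ends.

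The means of the 17 centromere-proximal ends ran from 63.2% on chromosome 3 to 98.5% on chromosome 19, with an SD over chromosomes of 8.29. Telomere-proximal means ran from 28.7% on chromosome 18 to 99.3% on chromosome 19, with an SD of 23.3. When the interior was divided into 371 consecutive windows of 5 Mb of bins, their means ran from 9.07% to 100% with an SD of 22.5. Telomere-proximal ends were therefore spread about as widely as interior windows, and centromere-proximal ends less widely. Ends under 50% numbered 0 on the centromere-proximal and 3 on the telomere-proximal side (17.6%), against a background of 15.1% of interior windows. Ends with every bin replicated in at least 5 of the 6 cells numbered 1 (chromosome 19) and 5 (chromosomes 4, 5, 11, 15 and 19; 29.4%), against 12.1% of interior windows.

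Several kinds of end stood out among the members. The first was replicated throughout in nearly all cells. The centromere-proximal end of chromosome 19 (chr19:3240001-8480000) was at 100% in 5 cells and at 91.2% in cell 6. It holds Fau, which encodes a ubiquitin-like protein fused to ribosomal protein S30, at 1841 ± 452 TPM, and Chka, a choline kinase, at 557 ± 121 TPM (SD, n = 6 cells). Its telomere-proximal counterpart (chr19:56240001-61320000) was at 96% in cell 6 and 100% elsewhere, and includes Eif3a, a subunit of translation initiation factor eIF3, at 617 ± 87.0 TPM. Both ends of chromosome 19 were thus nearly finished in the cell with the lowest score.

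The second kind was low in every cell. The telomere-proximal end of chromosome 17 (chr17:89920001-94920000) scored 44.4, 29.3, 49.6, 10.4, 41.9 and 32.0% in cells 2, 3, 5, 6, 7 and 8. That of chromosome 18 scored 26.4, 42.4, 12.8, 24.8, 31.2 and 34.4%, and that of chromosome 3 (chr3:154720001-159760000) scored 39.5, 41.9, 44.8, 30.8, 33.9 and 43.2%. No cell had replicated as much as 50% of any of these ends.

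On chromosome 17, 52 bins were unreplicated and 11 replicated in all 6 cells, the former between positions 89920001 and 92800000. In the same end, Mettl4 (chr17:94722590-94750019, minus strand), a putative methyltransferase gene, was replicated in 6 of 6 cells at 14.4 ± 3.70 TPM. Its start lies in a stretch that was also called replicated in cells 1 and 6 of embryo 1 (8 and 7 bins between positions 94560001 and 94920000). On chromosome 3, Cth, which encodes cystathionine gamma-lyase of the transsulfuration pathway, was replicated in 6 of 6 cells at 196 ± 104 TPM, while 27 bins of the end were unreplicated and 22 replicated in all cells. On chromosome 18, 47 bins were unreplicated and 1 was replicated in all cells, so that most of its bins varied between cells. Tmx3, a disulfide isomerase gene at 12.1 ± 7.61 TPM, was replicated in every cell but cell 5.

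The third kind differed strongly between cells. The centromere-proximal end of chromosome 5 (chr5:3000001-8000000) was replicated by 84.8% to 100% in 5 cells and by 0% in cell 6. Krit1, a gene of endothelial cell junctions, at 46.4 ± 11.2 TPM, and Gtpbp10, which encodes a mitochondrial GTPase, at 20.8 ± 10.0 TPM, lay there and were unreplicated in cell 6 alone. The centromere-proximal end of chromosome 11 (chr11:3200001-8200000) was at 100% in cells 2, 5, 7 and 8, at 61.6% in cell 6 and at 16.8% in cell 3. Ppia, which encodes the peptidyl-prolyl isomerase cyclophilin A, was unreplicated there in cell 3 alone and had 1514 ± 141 TPM. Strong variation on chromosome 11 was not limited to this end. In the adjoining interior, the lowest cell was at 8% in window 1 and at 0% in windows 2 to 5. The SDs over cells without cell 6 were 37.9, 36.2, 42.4, 43.3 and 44.1 points in these windows. The chromosome 3 centromere-proximal end ranged from 40% in cell 6 and 40.8% in cell 3 to 92.8% in cell 8. The calls had 2 states, so a lost copy and an unreplicated bin would look alike at any of these places. The paper mentions chromosomal abnormalities in cells of embryo 1. Copy loss in the embryo 2 cells was not tested here.

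By contrast, the centromere-proximal end of chromosome 7 (chr7:3000001-10360000), which holds the ribosomal protein genes Rps9 and Rpl28, varied least, with 88.0% to 91.6% in the 6 cells (SD 1.505). The telomere-proximal ends of chromosome 7 (51.2%) and chromosome 11 (49.6%) were far lower in cell 6 than in the other cells, which ranged from 95.2% to 100% and were all at 100%, respectively. Rplp2, a ribosomal stalk protein gene on chromosome 7, was unreplicated in cell 6 alone and had 3862 ± 966 TPM. Eif4a3, the exon junction complex helicase gene on chromosome 11, was likewise unreplicated in cell 6 alone, at 493 ± 99.3 TPM. The splicing factor gene Srsf2 in the same end was replicated in 6 of 6 cells.

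Over all ends, the median SD between cells was 14.5 points for centromere-proximal ends, 11.1 for telomere-proximal ends and 10.7 for interior windows. Without cell 6 the medians were 7.56, 4.26 and 7.26. In cell 6, 0 of 34 ends were replicated in full. In the other cells, 3 to 10 of the 17 centromere-proximal and 7 to 10 of the telomere-proximal ends were.

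At the level of single bins, the centromere-proximal side held few bins that were replicated in none of the cells, and the share replicated in every cell depended on cell 6. Of bins with a state in all 6 cells, 48.8% of centromere-proximal (1012 of 2075) and 52.5% of telomere-proximal bins (1082 of 2059) were replicated in all 6, near the background of 48.7% of all bins. Over the 5 cells other than cell 6, these shares were 72.0% and 71.4%, against a background of 61.1% of all bins. Bins replicated in none made up 1.59% of centromere-proximal (33 bins) and 7.58% of telomere-proximal bins (156 bins), against a background of 8.03%. The share replicated in exactly 5 cells was 31.3% and 25.2%, against 20.7% of interior bins. Among these, the unreplicated cell was cell 6 for 74.1% of centromere-proximal and 78.0% of telomere-proximal bins, and for 61.9% of interior bins.

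The 33 centromere-proximal bins that were replicated in none lay on 3 chromosomes only. Chromosome 4 held 19 of them (between positions 6880001 and 7640000), chromosome 7 held 9 (between positions 9960001 and 10320000) and chromosome 3 held 5 (between positions 4720001 and 4920000). The telomere-proximal ones lay on 7 chromosomes, with 52 on chromosome 17, 47 on chromosome 18 and 27 on chromosome 3.

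The high score of centromere-proximal bins did not stop at 5 Mb. In steps of 1 Mb from the first bin, the mean over cells was 88.1, 87.1, 88.6, 82.8 and 79.6% in the first 5 steps. It remained between 77.8 and 89.6% in the following 8 steps and reached its lowest point, 70.9%, in step 15. Further inward it rose again, to 92.0% in step 19, which was above each of the first 5 steps. From the telomere side inward, the mean was 82.3, 85.6, 79.9, 78.8 and 68.2% in the first 5 steps and 90.5% in step 7. The lowest telomere-proximal megabase was therefore the innermost of the 5.

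At the very tip of the telomere-proximal side, cell 6 parted from the other cells. In its outermost 1 Mb, 46.6% of bins were replicated, against 86.4% to 93.4% in the other 5 cells. The outermost bin itself was unreplicated on 11 of 17 chromosomes in cell 6 and on 0 in the other cells, where it was replicated on 12 to 17 chromosomes and otherwise had no data. The unreplicated run from the tip was 0.08 to 1.28 Mb long in cell 6, with a median of 0.56 Mb, and was longest on chromosomes 3 (1.28 Mb) and 5 (1.2 Mb).

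No such difference between cells was seen at the outermost centromere-proximal bin, which was replicated on 13 chromosomes in cell 6 and on 10 to 14 in the others. It was unreplicated on 4 chromosomes in cell 6, on 6 in cell 3 and on 1 to 3 in the rest. Of the 17 outermost telomere-proximal bins, 7 held undetermined bases and 12 held the tandem TTAGGG pair. On the centromere-proximal side these counts were 1 and 0. In the embryo 1 cells 1, 6 and 7, the outermost telomere-proximal bin was called replicated on 2, 3 and 0 chromosomes and the centromere-proximal one on 3, 1 and 0, so background calls were more frequent at the tips than over the ends as a whole. The part of these sequence features in the calls was not tested.

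**Figure D3:**
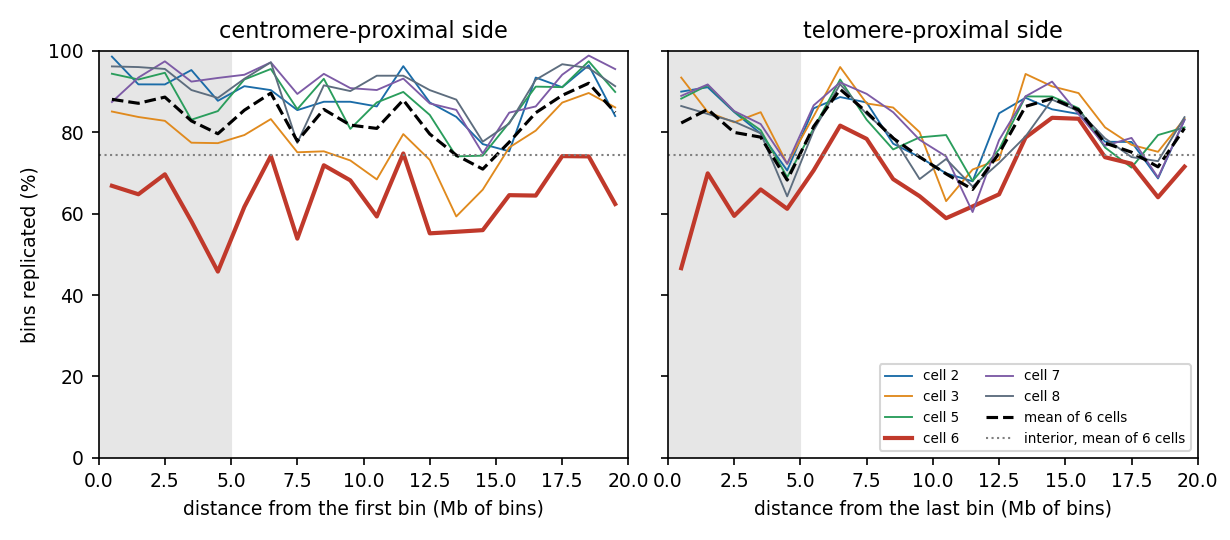
Percentage of bins replicated in steps of 1 Mb of bins from the first bin (left) and from the last bin (right) of the chromosomes, for each cell of embryo 2 (coloured lines) and their mean (dashed). The shaded 5 Mb are the ends and the dotted line is the interior mean of 74.5%. On the right, cell 6 drops to 46.6% in the outermost 1 Mb, where the other cells are at 86.4% or above.

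The 2 sides differed in sequence. GC content was 41.7% in centromere-proximal, 44.0% in telomere-proximal and 41.9% in interior bins. Repeat-masked bases made up 38.3, 30.2 and 32.9%, and protein-coding gene starts numbered 8.93, 10.9 and 8.57 per Mb (759 genes in the centromere-proximal and 929 in the telomere-proximal ends). Centromere-proximal bins were thus the most repeat-rich, with a GC content near that of the interior, and telomere-proximal bins the most GC-rich and gene-rich.

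Among the 17 telomere-proximal ends, the mean percentage replicated followed GC content (Pearson's r = 0.849, Spearman's rho = 0.666), as it did among the 371 interior windows (r = 0.747, rho = 0.784). Among the 17 centromere-proximal ends the relation was weaker (r = 0.505, rho = 0.328). These are correlations across windows that share the same 6 cells and neighbouring sequence, and are given as a description. Under 40% GC, the median of the means was 50.8% over 107 interior windows (9.07% to 94.3%), 82.8% over 7 centromere-proximal ends (63.2% to 92.7%) and 36.8% over 4 telomere-proximal ends (28.7% to 63.3%). All 7 centromere-proximal ends and 1 of the 4 telomere-proximal ends exceeded the window median.

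**Figure D4:**
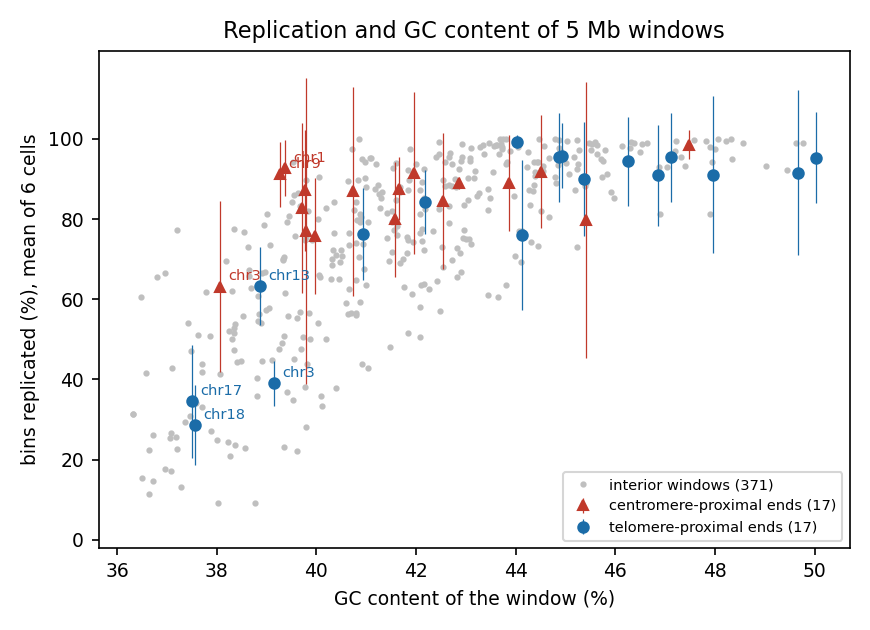
Percentage of bins replicated (vertical axis, mean over the 6 cells of embryo 2; bars on the ends are SD over cells and may pass 100%) against GC content (horizontal axis) for the 34 ends and 371 interior windows of the same number of bins. Telomere-proximal ends (circles) follow the interior windows (grey points), and several centromere-proximal ends (triangles) under 40% GC sit high among them.

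To set bins of like composition side by side, all bins were divided into 3 classes of equal size by GC content, at 39.6% and 43.5%. In the lowest class, 76.4% ± 13.2 of centromere-proximal bins (732 bins) were replicated, against 46.2% ± 4.99 of interior bins and 43.8% ± 6.30 of telomere-proximal bins (537 bins). The centromere-proximal values were 84.5, 72.1, 80.6, 51.4, 83.1 and 86.7% in cells 2, 3, 5, 6, 7 and 8, and the interior values were 46.3, 44.6, 45.4, 38.2, 52.6 and 50.1%. The ranges overlapped only through cell 6, in which the centromere-proximal value was still above its own interior value. The within-cell difference was 30.2 ± 9.20 points, from 13.3 to 38.2, above 0 in 6 of 6 cells. The telomere-proximal difference was −2.37 ± 4.83 points and above 0 in 1 of 6 cells.

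In the other classes the positions were closer together. In the middle class the centromere-proximal difference from the interior was 4.16 ± 5.99 points (5 of 6 cells) and the telomere-proximal difference −0.862 ± 3.93. In the highest class these were −0.808 ± 4.77 and −0.423 ± 4.36. All 4 means were within their spread between cells. For the middle class, the centromere-proximal difference ran from −7.49 points in cell 6 to 9.01, and cell 6 alone was below 0. The highest class took 26.1% of centromere-proximal, 54.3% of telomere-proximal and 32.7% of interior bins. The higher pooled score of telomere-proximal bins thus went with their larger share of GC-rich bins, and that of centromere-proximal bins mainly with the bins of low GC.

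**Figure D5:**
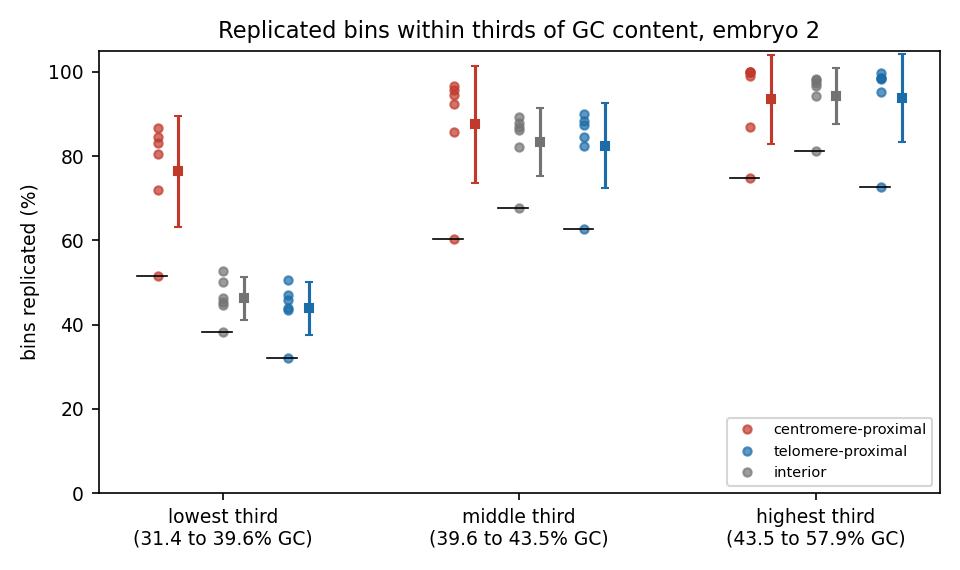
Percentage of bins replicated (vertical axis) in each cell of embryo 2 (circles; cell 6 crossed by a black line) with mean ± SD over cells (squares), by position and by class of GC content. Centromere-proximal bins of the lowest class average 76.4%, against 46.2% for interior and 43.8% for telomere-proximal bins, and the positions lie closer together in the other classes.

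The low-GC centromere-proximal bins were close to other low-GC bins in GC content but held more repeat-masked bases. Their GC content was 38.1%, against 37.7% in the interior and 37.8% next to the telomere, their repeat-masked share was 44.3% (39.5 and 40.4%), and they held 2.53 protein-coding gene starts per Mb (3.10 and 2.05). Among the 12 chromosomes with at least 20 such bins in the centromere-proximal end, 11 had a higher score there than in their own low-GC interior, with a median difference of 28.4 points. The exception was chromosome 2 (51.0% against 51.2%, 22 bins) and the highest difference was on chromosome 1 (90.04% against 43.3%, 77 bins). On the telomere-proximal side 2 of 6 such chromosomes were higher, with a median of −9.42 points.

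Low-GC bins further along the centromere-proximal side were also well replicated. Their score was 68.3% ± 10.98 from 5 to 10 Mb of bins, 67.4% ± 12.5 from 10 to 15 Mb and 72.9% ± 10.2 from 15 to 20 Mb. On the telomere-proximal side the same distances gave 35.2% ± 7.61, 35.8% ± 6.504 and 34.5% ± 5.53. The contrast between the centromeric and the telomeric side in low-GC bins was therefore not limited to the outermost 5 Mb.

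Relative to what their scores alone would give, pairs of cells shared less of their pattern in centromere-proximal bins than elsewhere. For the 15 pairs of cells, 79.9% of centromere-proximal bins, 84.5% of telomere-proximal bins and 81.9% of interior bins had the same state. The shares for independent cells at these scores were 74.2, 66.5 and 61.9%, and the excess was 5.68 ± 1.47, 18.03 ± 2.84 and 20.0 ± 2.46 points (SD over pairs, which share cells). As Cohen's kappa, the excess relative to its maximum, agreement was 0.276, 0.571 and 0.533, and the centromere-proximal value was below the interior value in 15 of 15 pairs. Without cell 6, the same-state shares were 88.1, 90.9 and 85.8%, so that centromere-proximal bins passed the interior, and kappa was 0.357, 0.685 and 0.601 over 10 pairs. Kappa falls as scores approach 0 or 100%, and the centromere-proximal score was the highest of the 3. With the bins whose state never differed between cells left out, the difference in excess between centromere-proximal and interior bins was −6.64 instead of −14.3 points. The state changed between neighbouring bins 0.392 times per Mb in centromere-proximal, 0.425 in telomere-proximal and 0.514 in interior bins. The SD over cells was 0.268, 0.257 and 0.162. Cell 6 had the opposite order, with 0.906 and 0.935 changes per Mb at the 2 ends and 0.841 in the interior. In each of the other cells both ends were below the interior.

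The RNA assigned to the same cells was read at the genes that start in these bins, and a gene was called replicated where the bin of its start was. All RNA columns were headed with the same embryo and cell, and were tied to cells only by the closing number of the header. The study used 2 versions of the protocol on these embryos, which differed in lysis volume, and the labels do not say which cell had which, so SDs of TPM may include that difference. The cells expressed the pluripotency factor gene Pou5f1 at 117 to 231 TPM and the maternal factor gene Dppa3 at 1138 to 1836 TPM. In all, 5 of 8 cleavage-embryo markers were above 1 TPM in every cell, and Zfp352 was listed at 0 in all 6. No cumulus cell marker of 5 reached 1 TPM in any cell, and of 4 sperm markers, Prm1 and Prm2 passed it in a single cell each, with at most 1.62 TPM.

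Genes with more than 1 TPM in at least 1 cell made up 39.6% of centromere-proximal (708 of 1788), 37.9% of telomere-proximal (790 of 2084) and 34.4% of interior genes (13599 of 39519). For protein-coding genes the shares were 67.0, 64.7 and 58.5%. The mean log10(TPM + 1) of the expressed genes was 0.811 ± 0.0393, 0.829 ± 0.0505 and 0.813 ± 0.0496 (SD, n = 6 cells). Within cells, the centromere-proximal mean differed from the interior by −0.00235 ± 0.0168 and the telomere-proximal mean by 0.0158 ± 0.0123. Over protein-coding genes alone the means were 0.956, 0.973 and 0.982, with the interior the highest, so no order of the positions held under both sets of genes.

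Apart from the genes above, Rps20 on chromosome 4 had 1081 ± 286 TPM and was unreplicated in cell 6 alone. On the telomere-proximal side of chromosome 15, Cox14, for an assembly factor of cytochrome c oxidase, had 1024 ± 223 TPM and was replicated in 6 of 6 cells, and Hnrnpa1, an RNA-binding protein gene, had 565 ± 49.2 TPM and was unreplicated in cell 6 alone. Tomm20, for a mitochondrial import receptor, was replicated in 6 of 6 cells on chromosome 8 at 832 ± 270 TPM. Gm11808, Gm11032 and Rps12-ps3 also ranked first or second in their ends. Predicted genes and those named as copies of another gene may share reads with similar genes, so their levels are uncertain.

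Imprinted genes, which are expressed from the allele of 1 parent, included a cluster at the telomere-proximal end of chromosome 7. Of the listed genes with a state, 3 lay in centromere-proximal ends, 17 in telomere-proximal ends and 29 in the interior. Zim1, Peg3 and Usp29 (chromosome 7, centromere-proximal) were replicated in 6 of 6 cells, as were Gnas and its antisense transcript Nespas on chromosome 2. Gnas, for the stimulatory G protein subunit, had 212 TPM on average. Of the 15 at the telomere-proximal end of chromosome 7, H19, Igf2, Cdkn1c, Kcnq1ot1 and 6 others were unreplicated in cell 6 alone. Kcnq1, Cd81, Tspan32 and Tssc4 were unreplicated in cells 6 and 8, and Osbpl5 was replicated in all 6. Over its whole length this end was at 51.2% in cell 6 and 95.2% in cell 8. Of the 29 interior genes of the list, 10 were replicated in all 6 cells, beside 48.7% of all bins.

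Receptor and keratin genes lay in clusters at a few ends. Clustered genes share bins or lie in neighbouring ones, so their counts at the ends describe a few loci. Over all bins, 48.7% were replicated in all 6 cells. Among Olfr genes (olfactory receptors), 9 of 10 centromere-proximal and 441 of 993 interior members were replicated in 6 of 6 cells. All 14 at the telomere-proximal end of chromosome 7 were too, but they lay in 1 stretch, between positions 140343815 and 140705606. Of 10 Vmn2r genes (vomeronasal receptors) in the centromere-proximal end of chromosome 7, Vmn2r49, Vmn2r50, Vmn2r51 and Vmn2r52 were replicated in 0 of 6 cells, with Vmn1r66 beside them. These 5 genes lay in the stretch of 9 unreplicated bins given above. The other 10 of 11 centromere-proximal Vmn1r genes were replicated in all cells. In the interior, 36 of 75 Vmn2r genes were replicated in all 6 cells and 7 in none, and 79 of 94 Vmn1r genes in all 6. Of 26 Krt genes (keratins) at the telomere-proximal end of chromosome 15, 20 were replicated in all 6 cells. The other 6 were unreplicated in cell 6. Of 27 interior Krt genes, all on chromosome 11, 12 were replicated in all 6 cells.

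Among Zfp genes (zinc finger proteins), 19 of 23 centromere-proximal members were replicated in all 6 cells, and 16 of the 23 lay on chromosome 7. So were 6 of 15 telomere-proximal and 263 of 299 interior members replicated in all 6, beside 48.7% of all bins. The other telomere-proximal members were replicated in 5 cells and unreplicated in cell 6 alone, except Zfp512b, which had no state in the remaining cell. Mean percentages replicated were 97.8, 91.1 and 97.6% for centromere-proximal, telomere-proximal and interior Zfp genes. The 2-cell-stage genes Tcstv1 and Tcstv3, at the telomere-proximal end of chromosome 13, were each replicated in 5 cells. Cyp genes (cytochrome P450 enzymes) had 2 members on each side, and Defa, Defb, Serpin and Hist genes had none in the ends.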

How the data were processed

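scRR-seq-DNA and scRR-seq-RNA profiles of single blastomeres were used, 6 cells of embryo 2 and 3 of embryo 1. The authors deposited a score for each 40-kb bin (1 replicated, −1 unreplicated, 0 no data), after alignment to mm10 (BWA 0.7.17-r1188, per the submitters' processing notes), removal of blacklisted regions, mappability correction by the G1-like or G2/M-like cells and 2-state hidden Markov calling in AneuFinder. The model smooths states along the chromosome, and correction by the G1-like or G2/M-like cells acts most where mappability is poor. The authors deposited RNA as TPM, estimated with RSEM on GENCODE annotation. Neither table keeps read depth, so no counting interval was computed.

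Of 13 labelled cells, 4 were not analysed here, and 14 columns per table carried no label of the series and were not used. The transcript table was not used. RNA columns, all headed as the same cell, were assigned by closing number. Percentages used bins with a state. Each interior was cut into consecutive 5 Mb windows of bins, and a remainder was dropped. GC, masked bases, motifs and gene positions came from the GRCm38 genome and GENCODE annotation, which matched 55141 of 55487 genes. A gene was placed in the bin of its annotated start and took that bin's state. Genes of the Zfp, Krt and Olfr families needed a number after the family name. Named ends were the 3 lowest, 3 highest and 2 most variable per side and those of chromosomes 7 and 11. Named genes were the 2 protein-coding genes of highest mean TPM in each, and list members, of which 1 gene, with some sequences, is not reported here. End bins and gene lists were chosen with earlier results of these data known. Difference calculations were tested on simulated data. Python 3.11.15, numpy 2.4.6, pandas 2.3.3 and matplotlib 3.10.9 were used. Alternatives changed end width, end definition, treatment of no data, interior definition, GC classes, pseudocount, TPM threshold, cells and chromosomes included.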

Additional observations from a re-analysis of the deposited data

Results flagged for a closer look

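In 20 of 40 groups of 6 cells (34 ends, 3 bin classes and 3 within-cell differences), the most extreme cell stood apart by more than Dixon's 95% limit. For separate groups of normally distributed values, chance alone would give about 1 in 20, or 2 groups. These groups share the same 6 cells, the bin classes contain the ends, and the differences come from the classes. Percentages are also capped at 100, so the expectation of 2 is not a valid yardstick here. The cells come from 1 embryo and are not independent replicates, so the count of 20 is a description. In 6 of the 20 groups the other 5 cells were all at 100%, so that any lower value stood apart. The cell standing apart was cell 6 in 19 groups and cell 8 in 1. Cell 6 was low over all centromere-proximal (61.0%), telomere-proximal (60.6%) and interior bins (62.5%), so the ends shared this with the whole profile.

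Among centromere-proximal ends, cell 6 stood apart on chromosome 2 (51.2%), chromosome 4 (46.4%), chromosome 5 (0%), chromosome 15 (34.4%), chromosome 18 (50.4%) and chromosome 19 (91.2%). Among telomere-proximal ends, it stood apart on chromosome 1 (39.2%), chromosome 2 (67.2%), chromosome 4 (72.0%), chromosome 5 (72.8%), chromosome 7 (51.2%), chromosome 8 (80.0%), chromosome 9 (72.0%), chromosome 11 (49.6%), chromosome 15 (72.8%) and chromosome 19 (96.0%). Cell 8 stood apart at the telomere-proximal end of chromosome 12 with 53.6%, where the other cells had at least 76.0%.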

How the results depend on the processing

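Of the alternatives to the results above, 121 changed neither direction nor size beyond the spread or the 1.5-fold limit, 8 moved and 2 turned direction. These limits are wide, and sizable changes passed them. The telomere-proximal excess was 2.60 instead of 4.46 points within closing numbers 22 to 25. Telomere-proximal minus centromere-proximal was −2.75 instead of −6.30 without chromosome 18. Without cell 6, the share of centromere-proximal bins replicated in every cell was 72.0% instead of 48.8%. With 50 bins per end, the telomere-proximal excess over the interior was 9.18 points, and bins replicated in none made up 0.607% of centromere-proximal and 2.33% of telomere-proximal bins. With the interior at least 500 bins from both ends, 1 centromere-proximal end lay below its interior. Leaving out each cell gave 0 to 3 such ends, 0 without cell 6 and 1 without cell 3. For RNA, the centromere-proximal minus interior difference in mean log10(TPM + 1) was −0.00235, and became −0.0231 with genes above 5 TPM and 0.0113 with a pseudocount of 0.1. With bins of 1 state in all cells left out, the agreement excess relative to the interior was −6.64 points for centromere-proximal bins, and for telomere-proximal bins turned from −1.93 to 1.05. The cause of these changes was not tested. Leaving out each cell, the centromere-proximal excess ranged from 9.68 to 13.2 points and the telomere-proximal excess from 3.35 to 5.75. No paired analysis was possible because the shared numbers name different cells of different embryos and no test between embryos was made. The profiles come from 1 embryo in S-phase, and the tables keep no depth.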
